A study of Mus musculus with 32 samples.

Results

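A set of 8 genes of cholesterol synthesis and its control was followed in mouse lung: Hmgcs1, Idi1, Fdft1, Sqle, Lss, Cyp51, Srebf2 and Insig1. They were chosen by symbol, each symbol matched 1 row of the count table, and they make up 8 of its 35275 genes. None of the 8 is an uptake receptor, so uptake and transport of sterols are given only through a separate list of 12 genes. RNA with poly(A) tails from the lungs of C57B/6 mice had been sequenced in 32 libraries, in 2 experiments of 16 libraries and 4 groups each. In the first, males exposed to cigarette smoke (5 libraries) were set beside males in room air (3 libraries), and females in smoke (5) beside females in air (3), all labelled with 5 months of exposure. In the second, all mice were smoke-exposed females: ovariectomized mice after 5 months of smoke (5 libraries) were set beside sham-operated mice after 5 months (5), and ovariectomized mice after 3 months (3) beside sham-operated mice after 3 months (3). The second experiment therefore held no mice in air. The labels give no age, and they do not say whether each library came from a separate animal. The p-values therefore measure the spread between libraries, which may be partly technical. Nor do the labels give a collection date or sequencing run. Anything of that kind that differed between compared groups cannot be told apart from smoke, sex, surgery or length of exposure.

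Cells make cholesterol from acetyl-CoA through mevalonate, isoprenoids and squalene, and most of these steps take place at the endoplasmic reticulum. When sterols are scarce there, the transcription factor SREBP-2 is carried to the Golgi, cut and released to the nucleus, where it switches on the genes of the pathway; when sterols are plentiful, INSIG proteins hold it back. In the lung, alveolar type 2 cells use cholesterol and fatty acids for surfactant, and alveolar macrophages clear surfactant lipid. In order of the pathway, Hmgcs1 encodes the cytosolic synthase that makes HMG-CoA, and Idi1 the isomerase of the isoprenoid building blocks. Fdft1 encodes squalene synthase, Sqle the epoxidase that adds oxygen to squalene, Lss the cyclase that forms lanosterol, and Cyp51 the demethylase that acts on lanosterol. Srebf2 encodes SREBP-2 itself, and Insig1 encodes an INSIG protein and is also a target of SREBP.

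The genes lie apart in the genome. In the coordinates of the deposited table, Hmgcs1 is at chr13:119690462-119708086, Idi1 at chr13:8885501-8892451, Fdft1 at chr14:63145153-63177793 and Sqle at chr15:59315077-59331192. Lss is at chr10:76531588-76557138, Cyp51 at chr5:4081145-4104746, Srebf2 at chr15:82147266-82205376 and Insig1 at chr5:28071363-28078662. Upstream sequences were found in RefSeq (GRCm38.p6) for 6 of the 8, and 3 are shown because they hold the letters of elements that sterol control is known to use and because these genes carry the results below. Capitals mark 3 kinds of match, on either strand: TCACCCCA, a form of the sterol regulatory element; CACGTG, an E-box, whose letters read the same on both strands; and CCAAT or its reverse complement ATTGG, the CCAAT box. Each line is the 250 bases before the start annotated in RefSeq, which for Hmgcs1, Srebf2 and Insig1 is not the start given above from the deposited table, and from which the distances below are counted. They are read 5′ to 3′ on the gene's strand and lie at chr13:119690101-119690350, chr15:82147019-82147268 and chr5:28071162-28071411, all on the plus strand.
Hmgcs1: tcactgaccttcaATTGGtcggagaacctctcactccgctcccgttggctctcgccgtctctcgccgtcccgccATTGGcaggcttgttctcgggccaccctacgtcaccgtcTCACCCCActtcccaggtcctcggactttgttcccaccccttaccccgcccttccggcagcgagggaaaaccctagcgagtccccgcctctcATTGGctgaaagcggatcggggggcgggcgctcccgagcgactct
Srebf2: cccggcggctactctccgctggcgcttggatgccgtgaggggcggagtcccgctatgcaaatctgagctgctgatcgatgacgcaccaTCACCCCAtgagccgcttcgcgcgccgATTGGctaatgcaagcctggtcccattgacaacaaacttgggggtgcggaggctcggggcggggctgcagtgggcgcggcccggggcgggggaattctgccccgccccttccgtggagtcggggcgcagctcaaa
Insig1: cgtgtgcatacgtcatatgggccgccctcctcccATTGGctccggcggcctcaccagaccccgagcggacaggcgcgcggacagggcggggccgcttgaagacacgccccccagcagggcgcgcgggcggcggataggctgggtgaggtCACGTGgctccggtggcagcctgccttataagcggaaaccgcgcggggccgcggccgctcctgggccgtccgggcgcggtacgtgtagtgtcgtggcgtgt
TCACCCCA occurred in the upstream windows of Hmgcs1 (130 to 137 bases before the start) and Srebf2 (155 to 162 bases before it), 2 of the 6 members, against 1.34% of 32851 mouse promoters of the same length. CACGTG occurred in 1 of 6 (Insig1, 96 to 101 bases before the start), against 6.02% of promoters. CCAAT boxes occurred in all 6, against 33.8% of promoters. None of the 3 motifs shares bases with another in these sequences. These are matches of letters in a window, and they do not show that a factor binds.

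All 8 genes were expressed in every library. Raw counts of a member in a library ran from 354 (Idi1) to 4910 (Srebf2), on library totals of 13790052 to 24497332 counts. On the TPM scale, which accounts for gene length, the median levels over the 32 libraries ran as follows, and close neighbours changed places between groups. Hmgcs1, at 95.8 TPM, and Srebf2, at 89.6 TPM, were the highest, followed by Insig1 at 76.8 TPM. Fdft1, at 39.6 TPM, and Cyp51, at 36.0 TPM, lay in the middle. Idi1, at 22.2 TPM, Sqle, at 21.1 TPM, and Lss, at 10.4 TPM, were the lowest. The entry enzyme and the 2 regulators were above the 5 later enzymes in these medians.

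Differences between groups were small beside these differences between genes. The highest group mean of a member was between 1.33 times (Lss) and 1.52 times (Fdft1) its lowest group mean, in CPM, the count as a share of a TMM-scaled library total over all 32 libraries, which is used for every level from here on. When the 8 group means of a gene were put in order, 52 of the 56 steps between neighbours were no larger than the larger of the 2 SDs. A step between neighbours is only a part of the whole spread, so this count bears on the order and not on whether groups differed. The 3-month groups held the lowest mean of 6 genes: ovariectomized mice at 3 months for Hmgcs1, Sqle, Cyp51 and Srebf2, and sham mice at 3 months for Idi1 and Fdft1. Lss was lowest in males in air and Insig1 in females in air. Hmgcs1, Fdft1, Cyp51 and Srebf2 had their highest mean in males in air. Levels set across the 2 experiments were not tested, since the experiments were fitted apart.

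**Figure D1:**
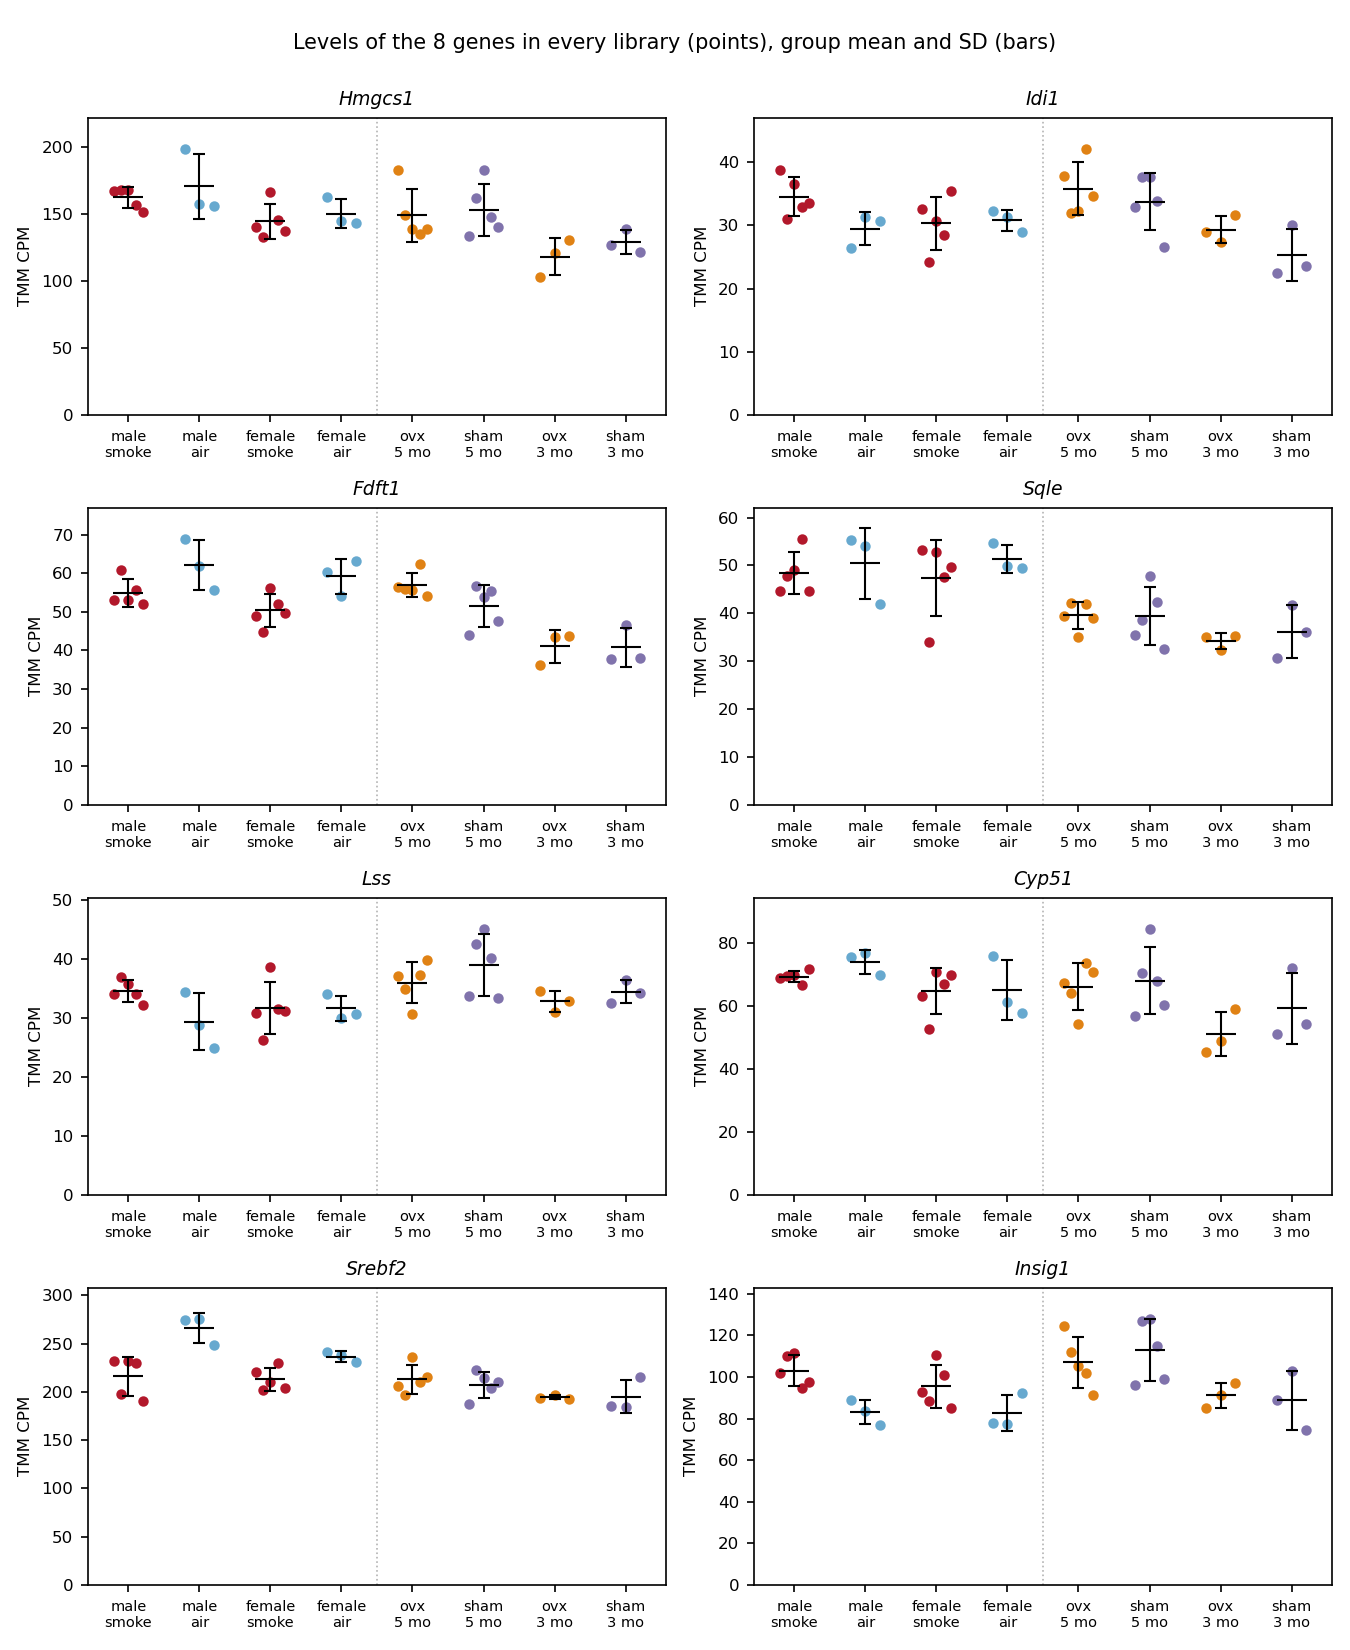
Level of each of the 8 genes (vertical axis, TMM-scaled CPM, starting at 0) in the 8 groups (horizontal axis; the dotted line parts the 2 experiments, ovx stands for ovariectomized); points are libraries and bars are the group mean and SD, n = 3 or 5. In males, the smoke libraries of Srebf2 lie below all air libraries and those of Insig1 above them, and the 3-month groups are the lowest for 6 genes.

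Between smoke and air in males, the 2 regulators differed past the test and none of the 6 enzymes did. Srebf2 fell and Insig1 rose, so 2 of the 8 members passed edgeR's quasi-likelihood test at a Benjamini-Hochberg adjusted p under 0.05, where 10.3% of the 16361 genes tested in this comparison did (4.93% higher and 5.33% lower). At an unadjusted p under 0.05 there were 4 members, where 23.2% of genes lay. Srebf2 had 232, 197, 232, 229.8 and 191 CPM in males in smoke, against 275, 275 and 248 CPM in males in air. Every smoke library lay below every air library. Its mean was 216 ± 20.5 CPM in smoke and 266 ± 15.2 CPM in air (SD, n = 5 and 3), a log2 fold change of -0.29 (SE 0.08, adjusted p = 0.0206 by edgeR).

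Insig1 had 102, 110.2, 111, 94.5 and 97.5 CPM in males in smoke, against 88.8, 83.6 and 77.1 CPM in males in air. Here every smoke library lay above every air library. The means were 103 ± 7.50 CPM in smoke and 83.1 ± 5.87 CPM in air (SD, n = 5 and 3), a log2 fold change of 0.31 (SE 0.09, adjusted p = 0.0338 by edgeR). The ranges of smoke and air libraries were apart for these 2 members, as they were for 16.8% of all genes tested. Both changes are modest, and both calls depended on single libraries. The Srebf2 call ended without smoke library 2 (adjusted p = 0.0523) or smoke library 5 (adjusted p = 0.0504), and the Insig1 call was lost when any 1 of the 3 air libraries, or smoke library 1, 2 or 3, was left out, with adjusted p-values by edgeR of 0.0535 to 0.169. The fold changes kept their sign throughout, between -0.35 and -0.26 for Srebf2 and between 0.26 and 0.36 for Insig1 over 18 alternatives each.

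The enzymes gave the following values in males. Lss had 34.1, 37.0, 35.8, 34.0 and 32.3 CPM in smoke, against 34.4, 28.9 and 24.9 CPM in air, and its log2 fold change of 0.24 (SE 0.11) did not pass (adjusted p = 0.211 by edgeR). Idi1 had 38.8, 31.0, 36.6, 32.9 and 33.5 CPM in smoke, against 26.5, 31.3 and 30.6 CPM in air, with 0.23 (SE 0.11, adjusted p = 0.214). Of the 5 smoke libraries, 2 of Lss and 4 of Idi1 lay above the highest air library, and the ranges overlapped. Fdft1 lay on the other side, at 55.0 ± 3.59 CPM in smoke and 62.1 ± 6.56 CPM in air, a log2 fold change of -0.17 (adjusted p = 0.257 by edgeR). Hmgcs1, Sqle and Cyp51 had log2 fold changes of -0.07, -0.05 and -0.09, with overlapping ranges in each. Over the 8 members the median log2 fold change was -0.06, and over all genes tested it was 0.01.

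In females, none of the 8 passed edgeR's test for smoke, where 7.7% of genes did. At an unadjusted p under 0.05 there were 2, where 21.3% of all genes lay. Insig1 had 92.5, 88.2, 111, 101 and 85.2 CPM in females in smoke, against 78.1, 77.5 and 92.4 CPM in females in air. Its log2 fold change was 0.22 (SE 0.09, adjusted p = 0.174 by edgeR). Fdft1 had 49.0, 44.8, 56.2, 52.0 and 49.8 CPM in smoke, against 60.2, 54.2 and 63.2 CPM in air. Only smoke library 3 of Fdft1 reached above the lowest air library, and its log2 fold change was -0.23 (SE 0.09, adjusted p = 0.133 by edgeR).

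Srebf2 had 220.4, 202, 210.0, 229.8 and 204 CPM in females in smoke, against 241, 238 and 231 CPM in females in air. The smoke libraries were all below the air libraries by a narrow margin on this scale, and not with CPM scaled within the experiment. The log2 fold change was -0.14 (SE 0.08, adjusted p = 0.322 by edgeR). Hmgcs1, Idi1, Sqle, Lss and Cyp51 had log2 fold changes between -0.11 and 0.01 in females. The 95% intervals of all 8 genes lay within -0.41 and 0.41 on the log2 scale.

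The difference between the sexes in the response to smoke was tested directly, as an interaction. By edgeR 0 of the 8 members passed, where 0.00611% of genes did. At an unadjusted p under 0.05 there were 0 of 8, where 5.75% of genes lay. DESeq2 called 0 of 8 for this interaction, and 0.0979% of the genes it gave an adjusted p. For Srebf2 the male log2 fold change minus the female was -0.15 (95% interval -0.39 to 0.08), and for Insig1 it was 0.10 (-0.17 to 0.37). A call in males and none in females therefore does not show that the sexes differed. Within smoke, males were compared with females, and 0 of 8 passed edgeR's test, where 0.189% of genes did. All 8 fold changes were positive, between 0.02 (Srebf2) and 0.19 (Idi1), as were 51.2% of all genes. The members varied together between libraries, as given below, so these signs are not separate observations. Hmgcs1 was the 1 member at an unadjusted p under 0.05 there, where 7.74% of genes lay, with 162 ± 7.73 CPM in males and 144 ± 13.1 CPM in females in smoke (SD, n = 5 each) and an adjusted p of 0.636. Within air, 0 of 8 passed, where 0.177% of genes did, and 0 lay at an unadjusted p under 0.05, where 9.27% of genes did. DESeq2 called 0 of 8 in both comparisons of the sexes. Of the genes it gave an adjusted p, it called 0.393% in smoke and 0.799% in air. In air, Srebf2 ranges were apart, as they were for 16.7% of genes, with 266 ± 15.2 CPM in males and 237 ± 5.35 CPM in females (SD, n = 3 each).

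**Figure D2:**
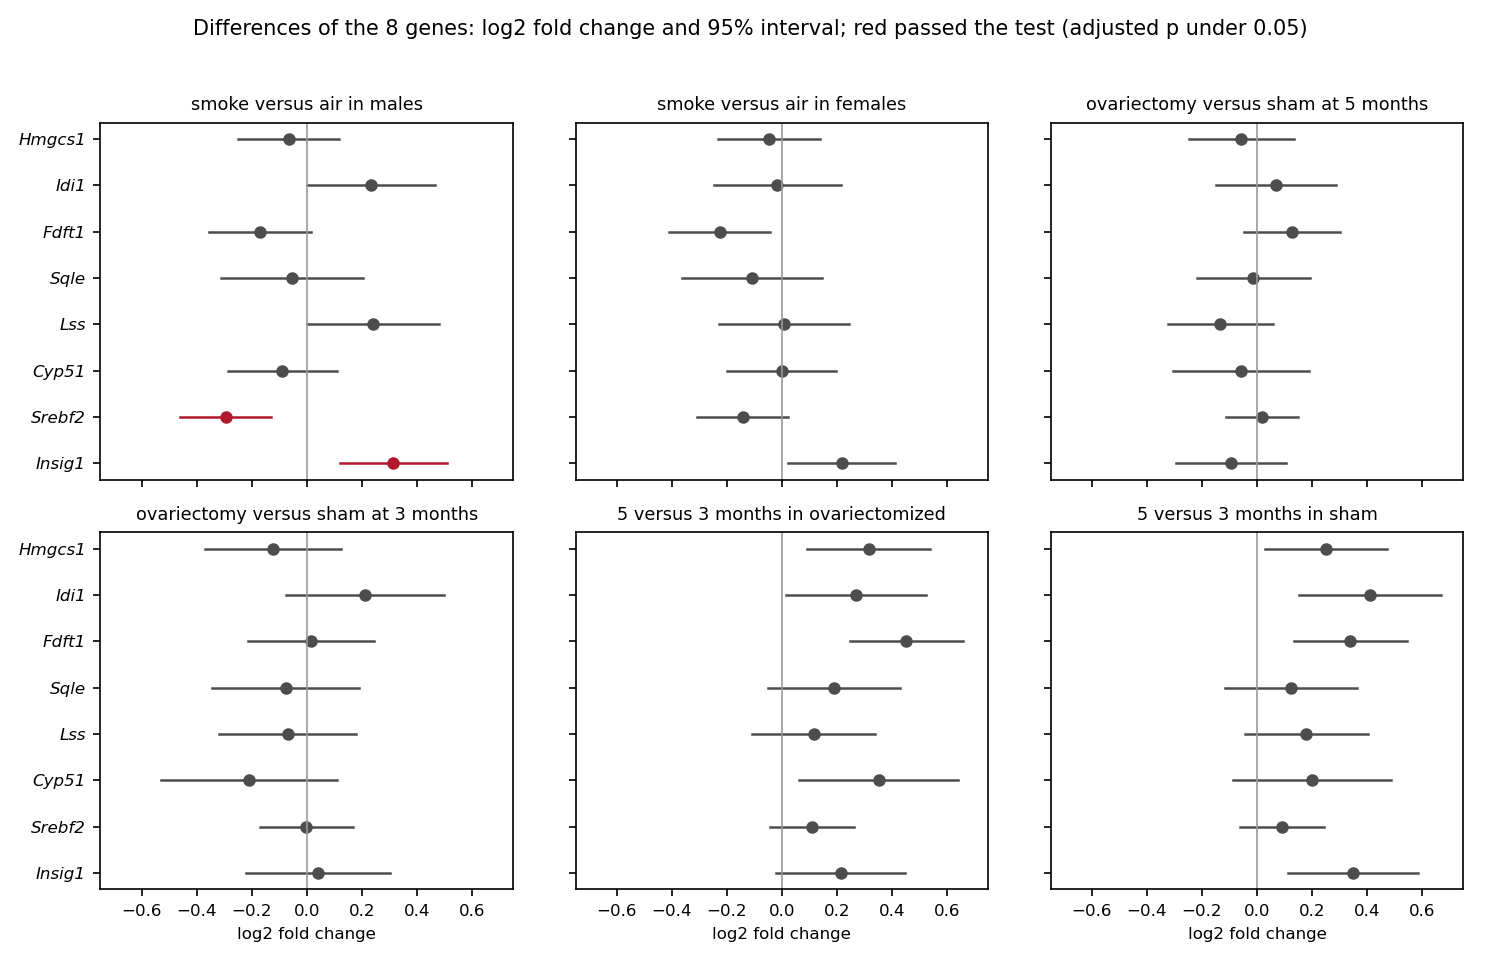
Log2 fold change (horizontal axis; points) with its 95% interval (lines) for the 8 genes in 6 comparisons, fitted with edgeR within each experiment; a positive value means higher in the group named first in the panel title, and red marks an adjusted p under 0.05. Srebf2 and Insig1 in males are the only points in red, and all 8 points lie right of 0 in both comparisons of 5 with 3 months.

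Other genes of sterol handling were counted beside the members. Of 15 other cholesterol synthesis enzymes, 0 passed for smoke in males (median log2 fold change -0.05, 1 at an unadjusted p under 0.05) and 0 in females (median -0.11, 2 at an unadjusted p under 0.05), by edgeR. Of 5 regulators of the SREBP pathway, Srebf1, the gene of SREBP-1, was the 1 that passed in males, with a log2 fold change of 0.25 (adjusted p = 0.0497 by edgeR), and its call ended under 12 of 18 alternatives. In females 0 of 5 passed.

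Of the 12 genes of sterol uptake and transport, 2 rose and 2 fell in males. Scarb1, the receptor for HDL, had 48.9, 63.1, 62.1, 46.8 and 44.9 CPM in males in smoke, against 82.1, 95.9 and 126.6 CPM in males in air, a log2 fold change of -0.93 (SE 0.15, adjusted p = 0.000776 by edgeR). Lrp1, a large endocytic receptor, had 466, 471, 475, 455 and 422 CPM in smoke, against 590.3, 667 and 753 CPM in air, a log2 fold change of -0.54 (SE 0.09, adjusted p = 0.000314). In both receptors the smoke libraries lay well below the air libraries, and both kept their call under all 18 alternatives. Soat1, which esterifies cholesterol for storage, rose by 0.37 on the log2 scale and Mylip, a ligase that marks lipoprotein receptors for breakdown, by 0.32, with calls that ended under 5 and 10 of 18 alternatives.

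In females 3 of the 12 rose and 1 fell. Scarb1 fell by 0.56 on the log2 scale, while Npc1, which exports cholesterol from lysosomes, rose by 0.44, Soat1 by 0.32 and Lipa, the lysosomal acid lipase, by 0.30. These calls ended under 7 (Scarb1), 3 (Npc1), 9 (Soat1) and 11 (Lipa) of 18 alternatives. Of 6 genes of LXR and cholesterol efflux, Abca1, the exporter of cholesterol to lipid-poor apolipoprotein, rose in males (0.26) and females (0.29), with calls lost under 11 and 7 of 18 alternatives. Ch25h, which makes 25-hydroxycholesterol, fell in females (-0.96), with its call lost under 13 of 18. Of 10 genes of fatty acid synthesis, 4 rose in males and 1 in females, and none fell.

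Some markers of other tissue and cell types differed between smoke and air in males too. All 7 liver markers had negative fold changes and 6 of them passed the test. Their summed level was 1.79 to 3.02 CPM in males in smoke and 2.46 to 420.2 CPM in males in air. Alb, a liver marker, was at 262, 50.6 and 1.80 CPM in male air libraries 1, 2 and 3. In the second experiment it reached 1129 CPM in a smoke-exposed library, number 3 of the ovariectomized mice at 3 months. Of 10 alveolar type 2 markers 1 (Cxcl15) rose past the test, while all 10 had positive fold changes and the median was 0.19. Their sums were 38348 to 45384 CPM in smoke and 35818 to 39238 CPM in air. Of 8 alveolar macrophage markers 1 (Fabp1, which the liver also expresses) fell, while 5 of the 8 had positive fold changes and the median was 0.21, with sums of 474 to 719 CPM in smoke and 448 to 692 CPM in air. Of 7 adipocyte markers 2 (Lep and Retn) rose, with sums of 127 to 233 CPM in smoke and 119.6 to 236 CPM in air. Of 6 club cell markers 0 passed, with sums of 6304 to 36999 CPM in smoke and 12695 to 34444 CPM in air. Without air library 1, the 1 male library with over 100 CPM of Alb, the log2 fold changes were -0.30 for Srebf2 and 0.33 for Insig1. In females, 0 of 7 liver markers passed, but all 7 fold changes were negative and 5 lay at an unadjusted p under 0.05, with sums of 1.60 to 14.3 CPM in smoke and 4.99 to 204 CPM in air. Of the 6 club cell markers 0 passed in females, with a median of -0.68 and sums of 9619 to 29812 CPM in smoke and 29629 to 41766 CPM in air. Of the 10 type 2 markers 1 rose past the test in females, while 8 had positive fold changes and the median was 0.10. In females 0 of 8 macrophage and 0 of 7 adipocyte markers passed. The part of these markers in the results of either sex was not tested, and in bulk tissue fewer cells of a type and less RNA per cell cannot be told apart.

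Ovariectomy left the members within the spread of the libraries at both times. At 5 months 0 of 8 passed edgeR's test, where 1.36% of genes did, and 0 lay at an unadjusted p under 0.05, where 15.5% of genes did. Fold changes of ovariectomized over sham mice ran from -0.13 (Lss) to 0.13 (Fdft1) on the log2 scale, and every 95% interval lay within -0.32 and 0.30. Fdft1 had 56.5, 55.9, 55.6, 62.5 and 54.2 CPM in ovariectomized mice, against 44.0, 56.7, 53.9, 55.4 and 47.7 CPM in sham mice. Sham libraries 1 and 5 were low, and the ranges overlapped. At 3 months 0 of 8 passed, where 0% of genes did (1568 of 16874 genes, or 9.29%, lay at an unadjusted p under 0.05, none of them a member), with fold changes from -0.21 (Cyp51) to 0.21 (Idi1). The intervals at 3 months were wider, and the widest reached -0.53 for Cyp51. DESeq2 called 0 members at either time. Of the genes it gave an adjusted p, it called 4.23% at 5 months and 0.644% at 3 months. The change of the ovariectomy effect between the times, tested as an interaction, passed for 0 of 8 members, where 0% of genes passed by edgeR (844 genes, or 5% of them, lay at an unadjusted p under 0.05, and no member did).

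All 8 members had positive fold changes of 5 over 3 months of exposure in sham mice and again in ovariectomized mice. In sham mice the fold changes ran from 0.09 (Srebf2) to 0.41 (Idi1) on the log2 scale, with a median of 0.22, and 50.3% of all genes were above 0. In ovariectomized mice they ran from 0.11 (Srebf2) to 0.45 (Fdft1), with a median of 0.24, and 47.5% of all genes were above 0. The 2 comparisons have no library in common. Within each, the 8 signs are not separate observations, because the members varied together between libraries of a group, as given below. The labels also give no collection date or sequencing run, and anything of that kind that differed between the 5-month and 3-month groups cannot be told apart from the length of exposure. Under the alternatives, the sign changed in 1 case: Lss in ovariectomized mice lay just below 0 without the libraries with over 100 CPM of Alb, which left 1 library at 3 months. In neither did a member pass edgeR's test, where 0.00593% of genes did in sham mice and 0.0178% in ovariectomized mice. At an unadjusted p under 0.05 there were 4 members in each, against 8.65% and 9.83% of all genes; DESeq2 called 0 members in sham mice, where it called 0.642% of the genes it gave an adjusted p, and 1, Fdft1, in ovariectomized mice, where it called 0.973% of them.

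Fdft1 carried the clearest difference. It had 56.5, 55.9, 55.6, 62.5 and 54.2 CPM in ovariectomized mice at 5 months, against 36.2, 43.5 and 43.6 CPM at 3 months. All 5-month libraries lay above all 3-month libraries, and with CPM scaled within the experiment the ranges were apart in this comparison for 2 members, Fdft1 and Hmgcs1, and for 5.54% of all genes. In sham mice Fdft1 had 44.0, 56.7, 53.9, 55.4 and 47.7 CPM at 5 months, against 37.7, 46.7 and 38.0 CPM at 3 months, and sham library 1 of the 5-month group fell within the 3-month range. The log2 fold changes were 0.45 (SE 0.10, adjusted p = 0.178 by edgeR) in ovariectomized and 0.34 (SE 0.10, adjusted p = 0.286) in sham mice.

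A contrast of 5 with 3 months averaged over surgery was added after these values had been seen. In it Fdft1 was the 1 member of 8 that passed, where 0.13% of genes did, and 5 members lay at an unadjusted p under 0.05, where 13.4% of genes did. It was higher at 5 months by 0.39 on the log2 scale (SE 0.07, adjusted p = 0.0144 by edgeR), a 1.31-fold difference. The call ended without sham library 1 or ovariectomized library 1 of the 3-month groups (adjusted p = 0.0752 and 0.0796). Next came Idi1 at 0.34 (adjusted p = 0.0783), Hmgcs1 at 0.28 (adjusted p = 0.0889) and Insig1 at 0.28 (adjusted p = 0.107), which did not pass in edgeR. DESeq2 called these 3 together with Fdft1, where it called 4.74% of the 10329 genes it gave an adjusted p.

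The other enzymes with values by library on which this rests were Idi1 and Hmgcs1. Idi1 had 33.0, 37.7, 37.6, 33.9 and 26.6 CPM in sham mice at 5 months, against 22.4, 30.1 and 23.6 CPM at 3 months. In ovariectomized mice it had 37.9, 32.04, 32.3, 42.0 and 34.7 CPM at 5 months, against 28.9, 27.4 and 31.7 CPM at 3 months. The ranges were apart in the ovariectomized mice by a narrow margin on this scale, and not with CPM scaled within the experiment, and sham library 5 of the 5-month group lay within the 3-month range. Hmgcs1 had 183, 149.5, 139, 135 and 139 CPM in ovariectomized mice at 5 months, against 103, 121 and 131 CPM at 3 months. In sham mice it had 133, 162, 183, 148 and 140.3 CPM at 5 months, against 127, 139 and 121 CPM at 3 months, with library 1 of the 5-month group inside the 3-month range. Srebf2 changed least, with 213 ± 14.9 CPM at 5 months and 195 ± 2.05 CPM at 3 months in ovariectomized mice (SD, n = 5 and 3).

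The 15 other enzymes of the pathway were read in the same contrast. In the averaged contrast 12 of 15 had positive fold changes with a median of 0.17, where the median of all genes was -0.0033 and 49.2% of them were positive, but 0 of 15 passed edgeR's test (7 at an unadjusted p under 0.05). All 10 alveolar type 2 markers were positive as well, with a median of 0.13, 0 of them past the test, and summed levels of 49078 to 52151 CPM in ovariectomized mice at 5 months and 39428 to 47757 CPM at 3 months. In sham mice these sums were 44418 to 50491 CPM at 5 months and 41570 to 46475 CPM at 3 months. Summed macrophage markers overlapped between the times in both surgeries, at 416 to 833 CPM at 5 months and 424 to 481 CPM at 3 months in ovariectomized mice. Liver markers, summed per library, spread over 2.44 to 1435 CPM (median 3.36 CPM) in the 5-month and 3.04 to 1538 CPM (median 687 CPM) in the 3-month ovariectomized libraries. In sham libraries they spread over 1.98 to 754 CPM at 5 months and 1.60 to 2.77 CPM at 3 months. The fold changes of 5 over 3 months were negative for 7 of 7 liver markers in ovariectomized mice and positive for 7 of 7 in sham mice, with 0 of 7 past edgeR's test in each. The part of the type 2 and liver markers in the difference was not tested. Leaving out the libraries with over 100 CPM of Alb left 1 ovariectomized library at 3 months, the lowest of the 3 in Fdft1 at 36.2 CPM and assumed to vary like the other groups. The averaged log2 fold change of Fdft1 was then 0.50 (adjusted p = 0.0173 by edgeR), which is no independent check of the call.

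Within groups, most of the enzymes and Insig1 varied together from library to library. Idi1 passed the test with fewer partners, and Srebf2 with none. Each gene's group mean was subtracted from its log2 CPM, so that only differences between libraries of 1 group remained. The 28 pairs of members were then correlated over the 32 libraries. All 28 Pearson coefficients were above 0, with a median of 0.495 and a range of 0.0211 to 0.765. In a permutation test of libraries within groups (two-sided, 100000 resamples, Benjamini-Hochberg over the 28 pairs), 15 pairs passed, and 14 did by Spearman's rho. Without the 2 libraries farthest from the median of the first gene of each pair, the median r was 0.436.

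The closest pairs were mostly among Sqle, Lss and Cyp51, and between Insig1 and Hmgcs1 or Fdft1. Sqle and Lss, whose enzymes act in succession, had r = 0.765 and rho = 0.673 (permutation p = 6e-05 and 0.00052, adjusted 0.00056 and 0.00291), and r = 0.696 without the 2 farthest libraries. Hmgcs1 and Insig1 had r = 0.763 and rho = 0.759 (permutation p = 2e-05 and 1e-05, adjusted 0.00042 and 0.00028), and r = 0.713 without the 2 farthest; 1e-05 is the smallest p that these permutations can give. Sqle with Cyp51 (0.718), Lss with Cyp51 (0.71), Fdft1 with Insig1 (0.704) and Idi1 with Cyp51 (0.691) came next. Hmgcs1, Sqle, Lss, Fdft1 and Cyp51 each passed with 5 of their 7 partners, Insig1 with 3 and Idi1 with 2.

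Srebf2 passed with 0 of 7 partners, and its coefficients ran from 0.0211 (Insig1) to 0.218 (Sqle). Among 10776 genes, its closest member, Sqle, ranked 2621 by r, whereas Insig1 ranked 1 for Hmgcs1 and Cyp51 ranked 1 for Idi1. Messenger level is what was measured here, and the cleaved SREBP-2 protein was not. Within single experiments 11 pairs passed in the second (median r 0.558) and 2 in the first (median r 0.462), each with 16 libraries. Of the 28 coefficients, 25 were above 0 in the first and 23 in the second. In the first experiment Idi1 had r = -0.2 with Insig1 and -0.139 with Fdft1, beside 0.562 and 0.667 in the second. The mean deviation of the 8 genes had r = 0.17 (rho = 0.283) with the total count and 0.263 (rho = 0.429) with the summed type 2 markers. With the summed macrophage markers it had r = 0.359 (rho = 0.345). For single type 2 markers, r ran from 0.088 (Napsa) to 0.677 (Lpcat1) over the second experiment's libraries. Over those of the first it ran from -0.292 (Cxcl15) to 0.248 (Lpcat1). These values are given without a test, and the part of these measures in the covariation was not tested. The mean deviation ran from -1.63 SD (female in smoke, library 2) to 1.42 SD (sham at 5 months, library 3). In library 2 of the females in smoke, Sqle was at 33.9 CPM while the rest of its group was at 47.6 to 53.3 CPM, and Cyp51 was at 52.7 CPM, against 63.3 to 70.7 CPM.

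**Figure D3:**
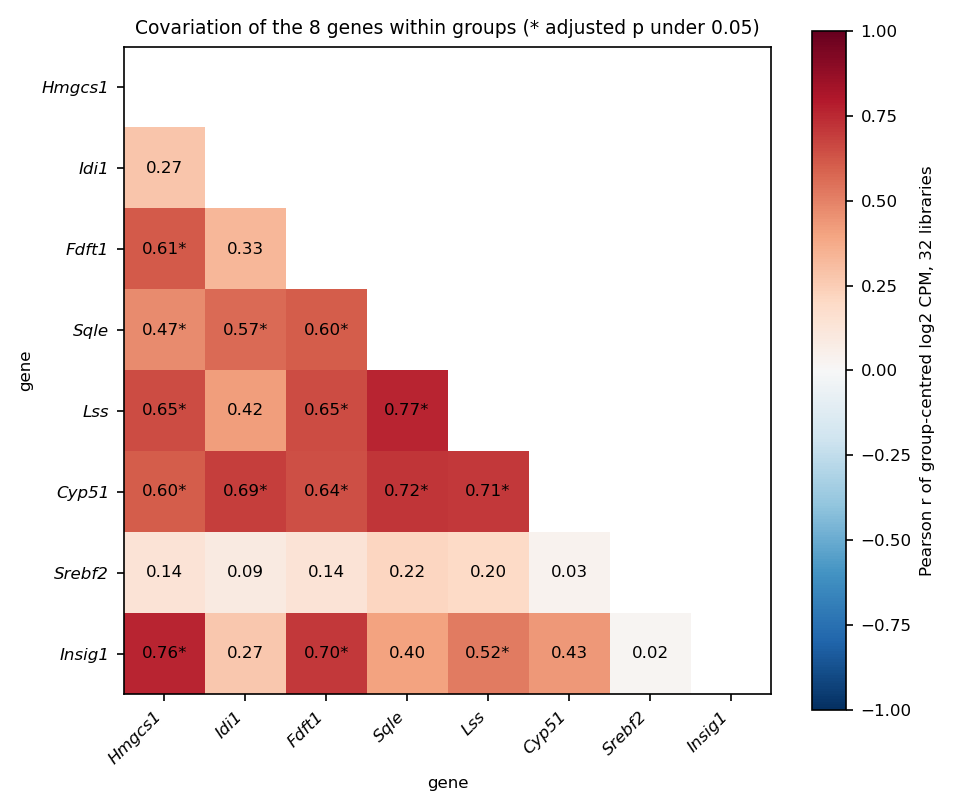
Pearson r of group-centred log2 CPM over 32 libraries for each pair of the 8 genes (both axes; colour from -1 to 1, value printed in each cell); a star marks an adjusted permutation p under 0.05. The row of Srebf2 and its cell with Insig1 are pale and without stars, and 15 of the other cells carry one.

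Genes outside the set were ranked by their r with the mean deviation of the 8 members over the same 32 libraries, among 10769 genes whose mean log2 CPM reached 3. The rank is a description, since the libraries share depth and cell makeup across genes. Aacs, the acetoacetyl-CoA synthetase that feeds ketone bodies into lipid synthesis, came first with r = 0.845 (0.821 over the first experiment's libraries, 0.895 over those of the second), above Fdps, the farnesyl diphosphate synthase of the pathway, with 0.751. Nucb2, the gene of nucleobindin 2, followed with 0.722, Galns, a lysosomal sulfatase of the breakdown of sulfated sugars, with 0.698, and Fabp5, a fatty acid binding protein, with 0.679. The median over all these genes was 0.0113 and the 95th percentile 0.365.

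Of the 15 other enzymes of the pathway, 7 were among the first 100 genes, with a median r of 0.417. Fdps, Msmo1, Acat2 and Mvd were the closest of them by rank. Pmvk (-0.16) and Lbr (-0.28) lay on the negative side. The 10 genes of fatty acid synthesis had a median r of 0.493, with 3 among the first 100, and a range of 0.27 to 0.63. The 12 genes of sterol uptake and transport had a median of 0.219, with 2 among the first 100. The 5 of 6 genes of LXR and efflux that reached this level had a median of 0.0243, with 0 among the first 100. The 5 SREBP regulators had a median of -0.06 and a range of -0.321 to 0.572. Srebf1, at 0.572, was the 1 regulator among the first 100.

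**Figure D4:**
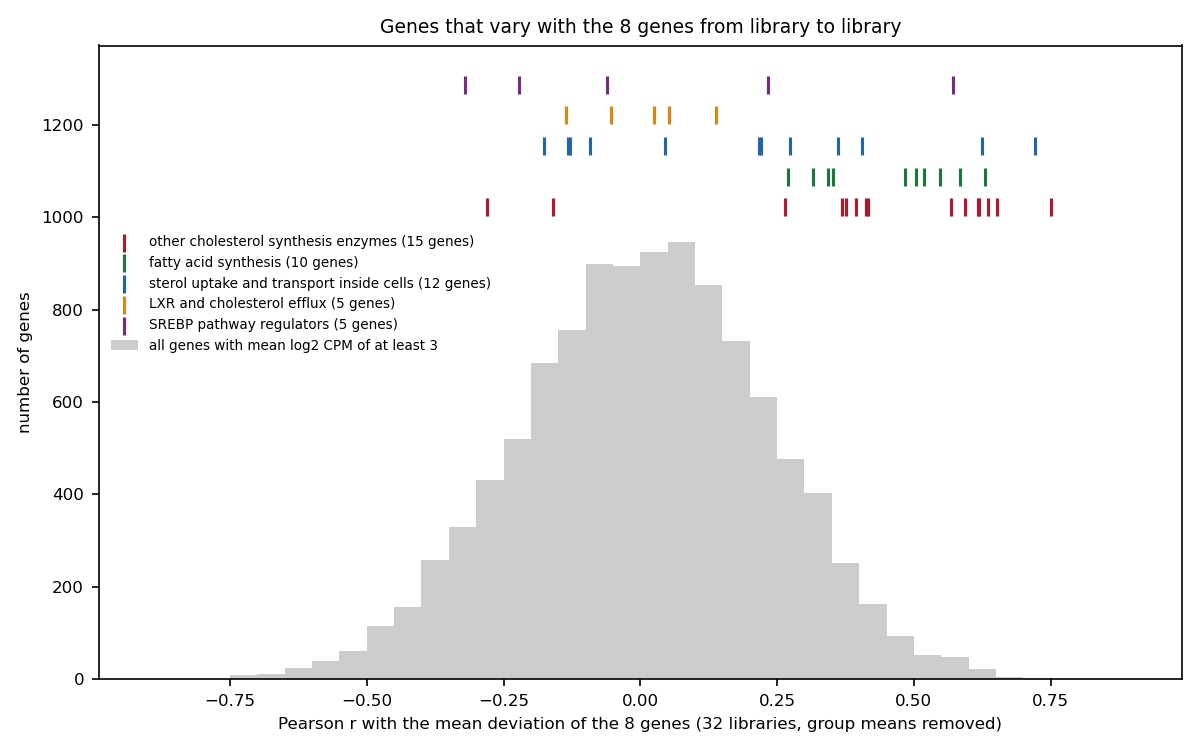
Number of genes (vertical axis) by their Pearson r with the mean within-group deviation of the 8 genes over 32 libraries (horizontal axis); grey bars count all genes outside the set whose mean log2 CPM reached 3, and ticks above mark single genes of 5 lists. Ticks of the other cholesterol enzymes and of fatty acid synthesis lie mostly to the right, with medians of 0.417 and 0.493 beside 0.0113 for all genes.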

How the data were processed

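Per the labels' protocols, total RNA was isolated from lung with Trizol and libraries were made with a NEBNext Ultra 2 kit. The submitters' processing notes name FastQC and the builds GRCm38 and mm10; no aligner or counting program is named in the sources used here. The deposited table of raw counts holds whole-number counts for 35275 genes. The unit of the deposited normalized table was settled from its values as TPM: 100% of the values of its 35186 genes equal the count divided by gene length and scaled to 1e+06 (tolerance 1e-06).

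Groups came from the labels. Counts of each experiment were fitted with edgeR 4.0.16 in R 4.3.3: filterByExpr (16361 and 16874 genes, all 8 members among them), TMM, 1 mean per group, robust quasi-likelihood F test, Benjamini-Hochberg over all genes tested, call at an adjusted p under 0.05. A fit was checked on simulated counts. Alternatives were RLE size factors, no filter or a stricter one, a replicate block, the compared groups alone, limma 3.58.1 on log2(TPM + 1) and log2(TPM + 0.1), DESeq2 1.42.0, leaving out each library, leaving out libraries with over 100 CPM of Alb, and all 32 libraries together; the contrast averaged over surgery was added after values had been seen. Levels are TMM CPM over 32 libraries, and r used log2 CPM with a prior count of 2. Library totals were 13790052 to 24497332 counts, and every member had at least 354 counts in each library.

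Sex-linked transcripts matched the labelled sex in all 32 libraries, and Alb exceeded 100 CPM in 7 libraries. Over 52 pairs of libraries of 1 group, the chi-square per gene was at least 9.51, so no 2 were near-copies. Same-numbered libraries did not all deviate together (lowest correlation -0.462, between males and females in smoke), so no pairing was used. Their correlations were all positive for smoke against air in females (0.0751 to 0.173) and for ovariectomy against sham at 3 months (0.0669 to 0.0932). Results with the replicate number as a block are given below. The members and the gene lists were chosen with earlier results of these data known. By the rule for named genes, all 8 members, at most 4 called genes of a list and the 6 genes most like the set are named; 1 of those 6 is not reported here. Upstream sequences of Sqle and Fdft1 were not used here.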

Additional observations from a re-analysis of the deposited data

Results flagged for a closer look

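Fdft1 in library 4 of the ovariectomized mice at 5 months stood apart from its group, at 62.5 CPM beside 54.2 to 56.5 CPM in the other 4 libraries. Its gap to the nearest library was 0.717 of the range of the group, over the limit of 0.71 for 5 libraries. It was the 1 such value among 32 combinations of a member and a group of 5 libraries, and chance flags about 1 in 20 groups. Without this library, Fdft1 differed between 5 and 3 months, averaged over surgery, by 0.38 on the log2 scale (adjusted p = 0.03 by edgeR), beside 0.39 with it.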

How the results depend on the processing

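Of 1744 alternative fold changes of the members, 1625 kept their direction and side of the threshold, 97 changed sign while not called, 17 lost a call, 5 gained one, and 0 called values changed sign. For smoke in males, where 2 members were called, 1 was called with the compared groups alone (Insig1), 1 with limma on log2(TPM + 1), 1 with log2(TPM + 0.1), 1 without the libraries with over 100 CPM of Alb and 1 with all 32 libraries in 1 fit (Srebf2 in these 4). The shares of all genes called there were, in that order, 9.5%, 6.07%, 6.06%, 8.45% and 9.69%, beside 10.3%. Leaving out 1 library gave 0 to 2. For 5 against 3 months averaged over surgery, where 1 member was called, limma called 0 at a pseudocount of 1 (0.0653% of all genes) and 0 at 0.1 (0.00593%), DESeq2 called 4 (4.74% of those it adjusted, beside 0.13% in edgeR), and leaving out 1 library gave 0 to 2. In ovariectomized mice alone DESeq2 called 1 (0.973% of those it adjusted) and edgeR 0 (0.0178%). Of the 28 pairs, 15 passed over all libraries, 2 in the first experiment alone, 11 in the second, 17 on log2(TPM + 1) and 14 without the libraries with over 100 CPM of Alb. The causes of these differences were not tested, and each single experiment held 16 of the 32 libraries. With the replicate number as a block, 2 members were called for smoke in males (Insig1 and Srebf2), 1 for time averaged over surgery (Fdft1) and 0 in every other comparison, the same counts as without it; the numbers share no known pairing. The averaged contrast and both interactions use all 4 groups, so the compared groups alone gave no separate value there. Groups of 3 libraries limit what these comparisons can detect.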
